A study of Mus musculus with 6 samples.

Results

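A set of 30 genes known as transcriptional targets of p53 was followed across the cell types of the mouse heart, 28 days after sham treatment or a single fraction of 12 Gy. The genes were taken by symbol from a list of p53 targets, and all 30 were found among the 32285 genes measured; Cdkn1a and Gdf15, also p53 targets, were kept apart from the list. Cells labelled CD45+ from hearts of C57Bl6J mice had been profiled with the 10x Genomics 3' v3 chemistry, which counts transcripts near their 3' ends by unique molecular identifiers (UMIs). Of the 6 libraries, 2 came from wild-type mice after sham treatment, 2 from wild-type mice after 12 Gy, and 2 from mice titled "Tmem" with the genotype STING KO, also after 12 Gy. STING is the adaptor of cytosolic DNA sensing and is encoded by Tmem173. The labels used here do not describe the knockout allele, and no sham library of the knockout was analysed here, so a difference between genotypes that was there before irradiation and one in the response to it cannot be told apart. Whether the libraries of a group are from different mice is not stated in the labels. A p-value here therefore judges a difference between groups against a spread between libraries that may be technical only.

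p53 is a transcription factor that Mdm2 keeps low in unstressed cells and that becomes stable when DNA is damaged. It then activates genes that arrest the cell cycle, aid repair, promote apoptosis and, through Mdm2 itself, limit its own activity. It binds pairs of a short half-site, the p53 decamer, in or near its target genes.

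After filtering, 31279 cells were kept, 3394 to 6014 per library, with a median of 4409 to 6792 UMIs per cell. Of these, 26112 lay in clusters that could be named from marker genes, and 10 named classes had at least 20 cells in every library: macrophage-like (10343 cells), neutrophil-like (3793), B cell-like (3413), endothelial-like (2064), monocyte-like (1855), cycling-like (1247, which mixes lineages), NK cell-like (1117), T cell-like (989), fibroblast-like (469) and dendritic cell-like (684). The endothelial-like class went against the CD45+ label: Ptprc, which encodes CD45, lay between 22.8 and 71.8 CPM (the gene's UMIs scaled to the UMI total of the class in a library) there, against 326 to 477 CPM in macrophage-like cells, while the endothelial gene Cdh5 lay between 1109 and 1407 CPM. Any pair of libraries shared 4 to 27 cell barcodes. UMIs were summed per library and class and tested with edgeR's quasi-likelihood test; "rose" and "fell" mean a Benjamini-Hochberg adjusted p under 0.05 over all genes tested in the class. The STING transcript gave no check of the genotype label: in macrophage-like cells Tmem173 lay at 50.9 and 46.2 CPM in sham, 59.6 and 57.1 CPM in irradiated wild-type libraries, against 52.1 and 52.7 CPM in those labelled STING knockout (log2 change by genotype label -0.28, adjusted p = 0.103), and the altered part of the gene is not described in the labels.

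The promoters are shown as a description of the members, which were chosen as known p53 targets. A larger share with the p53 decamer than over all genes may follow from that choice. RefSeq promoter windows of 300 bases (250 before and 50 after a start site, GRCm38.p6) were found for 24 of the 30 members. The p53 decamer was searched on both strands as RRRCWWGYYY, with no mismatch allowed. Here R is A or G, W is A or T and Y is C or T. The decamer was found in windows of 9 of these 24 genes (37.5%), against 9.55% of all 27025 genes with a window. Of the members with a window, 8 of the 14 that rose in endothelial-like cells held a decamer, as did 1 of the other 10, a split that was not tested. A full site of 2 decamers without a mismatch, at most 13 bases apart, was in none of the 35 member windows and in 0.0731% of all 32851 windows. Pairs with a mismatch were not counted, so these windows may still hold such pairs. The stretches of Mdm2, Ccng1 and Bax are printed, 5′ to 3′ on the strand of the gene, because these genes rose in both responding classes and their decamers lie before the start site and outside the annotated gene. Capitals mark the decamer.
Mdm2, chr10:117710905-117710974, minus strand: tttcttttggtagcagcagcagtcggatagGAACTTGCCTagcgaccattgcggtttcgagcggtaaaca
Ccng1, chr11:40755432-40755501, minus strand: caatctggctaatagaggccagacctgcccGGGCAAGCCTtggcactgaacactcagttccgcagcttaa
Bax, chr7:45467060-45467129, minus strand: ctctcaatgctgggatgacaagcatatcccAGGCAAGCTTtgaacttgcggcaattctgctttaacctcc
The decamer starts at position -186 from the start site in Mdm2, -185 in Ccng1 and -201 in Bax. A match is a description of these letters; no binding was measured.

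After 12 Gy, p53 targets rose in endothelial-like and macrophage-like cells. In endothelial-like cells 16 of the 28 members tested rose and none fell, where 2.27% of the 11232 genes tested rose and 1.33% fell. The median log2 change of the members tested was 1.20, against -0.02 over all genes. In macrophage-like cells 11 of the 26 members tested rose and none fell, where 5.14% of the 12242 genes tested rose and 4.13% fell, and the median was 0.26, against -0.00. At an unadjusted p under 0.05, 1 member was lower in endothelial-like cells (Cd80) and 0 in macrophage-like cells, where 11.7% and 12.3% of all genes were. DESeq2 called 15 higher and 0 lower in the first class and 9 higher and 0 lower in the second. It gave no adjusted p for 4 members in the first class. A member can pass the filter on low counts through the group in which it is high, so these counts describe the members tested and not all 30.

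**Figure D1:**
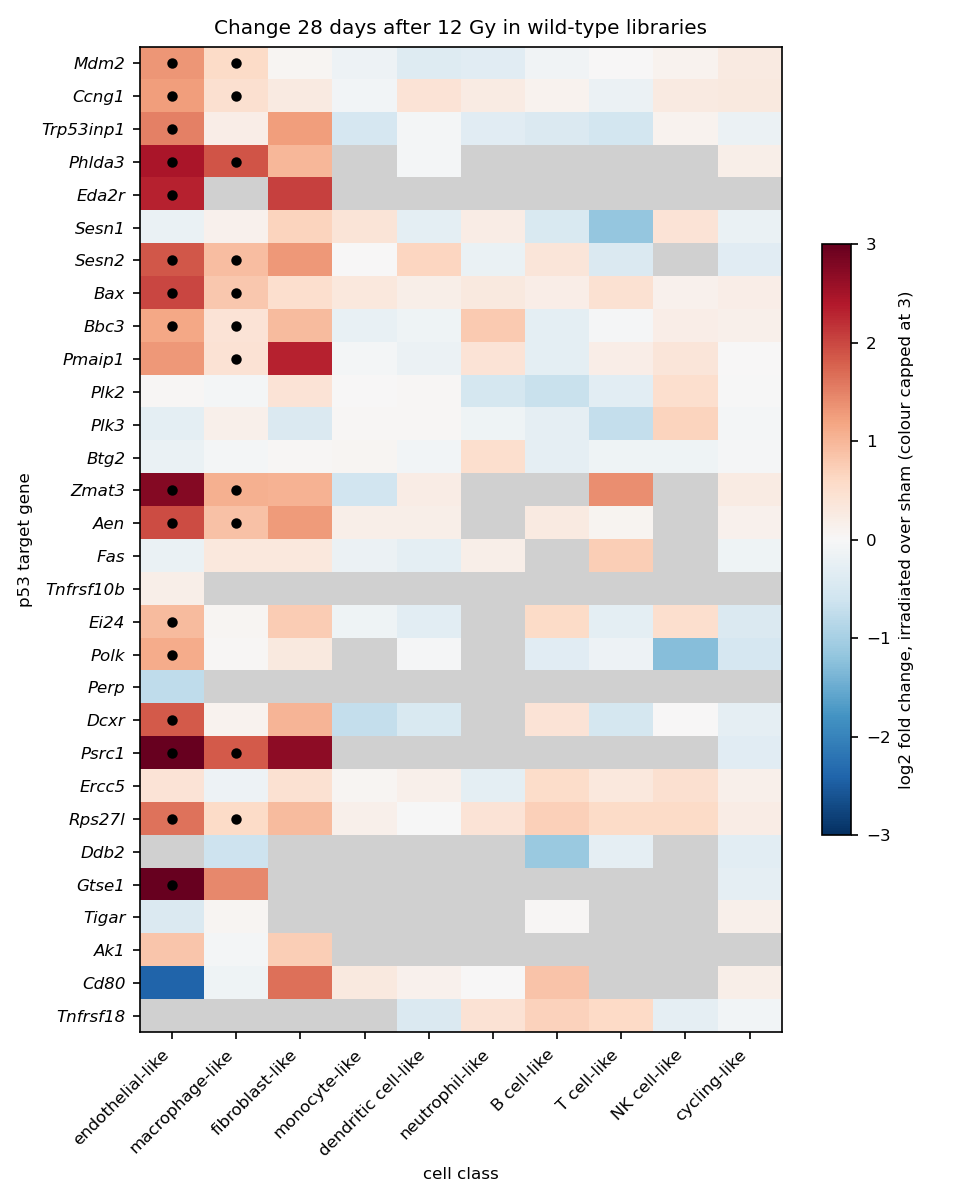
Log2 fold change between irradiated and sham wild-type libraries for each of the 30 genes (rows) in each of the 10 cell classes (columns). Colour gives the change, capped at 3 in either direction, grey marks genes not tested in a class, and black dots mark an adjusted p under 0.05: there are 16 in the endothelial-like column, 11 in the macrophage-like column and 0 in the other columns.

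Among the genes that act on p53 itself, Mdm2 (ENSMUSG00000020184, chromosome 10, 117688875 to 117710758, minus strand, GRCm38), the ubiquitin ligase that marks p53 for degradation, had 57.7 and 51.0 CPM in sham endothelial-like cells and 118 and 148 CPM after 12 Gy. The groups did not overlap, and Mdm2 rose by a log2 change of 1.32 (SE 0.15, adjusted p = 0.00809). For 2 libraries against 2, here and below, a lack of overlap alone has a permutation p of at least 0.333. In macrophage-like cells it had 70.8 and 68.7 CPM in sham and 96.0 and 109 CPM after 12 Gy, a log2 change of 0.58 (SE 0.09, adjusted p = 0.00618). Trp53inp1, a stress protein that promotes p53 activity, went from 27.3 and 24.2 to 76.4 and 69.0 CPM in endothelial-like cells (log2 change 1.52, SE 0.14, adjusted p = 0.00423). In macrophage-like cells its groups overlapped (21.4 and 16.7 CPM in sham, 19.0 and 23.8 CPM after 12 Gy). Ccng1 (cyclin G1) rose in both classes, by 1.25 (adjusted p = 0.00464) and by 0.47 (adjusted p = 0.0216).

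Phlda3 (ENSMUSG00000041801, chromosome 1, 135766119 to 135769136, plus strand), which restrains the survival kinase Akt, had 65.5 and 70.6 CPM in sham endothelial-like cells and 382 and 347 CPM after 12 Gy (log2 change 2.44, SE 0.11, adjusted p = 0.000119). In macrophage-like cells, where its level was lower, it went from 14.5 and 12.2 to 47.4 and 49.7 CPM (log2 change 1.88, SE 0.11, adjusted p = 8.55e-05). In both classes both irradiated libraries lay above both sham libraries. Zmat3 (chromosome 3, 32334792 to 32366014, minus strand), an RNA-binding zinc finger protein, went from 7.73 and 15.3 to 90.6 and 68.3 CPM in endothelial-like cells (log2 change 2.75, SE 0.26, adjusted p = 0.00433) and from 11.4 and 7.67 to 18.2 and 20.9 CPM in macrophage-like cells (log2 change 1.07, SE 0.16, adjusted p = 0.00485). The sham levels of Zmat3 overlapped between the 2 classes, and the irradiated levels did not. Rps27l (chromosome 9, 66946086 to 66949516, plus strand), a ribosomal protein paralogue, went from 244 and 250 to 815 and 703 CPM in endothelial-like cells (log2 change 1.64, SE 0.10, adjusted p = 0.000295) and from 205 and 213 to 316 and 298 CPM in macrophage-like cells (log2 change 0.58, SE 0.08, adjusted p = 0.00318). Rps27l is close in sequence to Rps27, and how reads were split between them is not given in the labels.

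Of the genes of apoptosis, Bax (ENSMUSG00000003873, chromosome 7, 45461697 to 45466898, minus strand), which permeabilises the outer mitochondrial membrane, had 151 and 150 CPM in sham endothelial-like cells and 649 and 541 CPM after 12 Gy (log2 change 2.00, SE 0.11, adjusted p = 0.000166). In macrophage-like cells it went from 131 and 137 to 228 and 232 CPM (log2 change 0.80, SE 0.08, adjusted p = 0.000666). Aen, an apoptosis-enhancing nuclease, went from 22.7 and 20.4 to 97.2 and 67.9 CPM in endothelial-like cells (log2 change 1.95, SE 0.19, adjusted p = 0.00504) and from 11.5 and 12.0 to 23.8 and 19.0 CPM in macrophage-like cells (log2 change 0.88, SE 0.13, adjusted p = 0.00416). Bbc3, which encodes Puma, rose by 1.16 in endothelial-like cells (adjusted p = 0.0371), a call kept in 2 of the 6 fits that left out a library. In macrophage-like cells it went from 25.7 and 23.3 to 32.9 and 31.2 CPM (log2 change 0.41, adjusted p = 0.0318), a call kept in 0 of 6. Pmaip1, which encodes Noxa, rose in macrophage-like cells from 45.2 and 36.2 to 52.9 and 54.8 CPM (log2 change 0.43, adjusted p = 0.0473), a call kept in 1 of 6; in endothelial-like cells its log2 change of 1.30 did not pass (adjusted p = 0.103). Ei24, linked to apoptosis and autophagy, rose by 0.95 in endothelial-like cells (adjusted p = 0.0161) and had a log2 change of 0.05 in macrophage-like cells. Perp, a membrane protein of cell junctions and apoptosis, had 3 to 21 UMIs per endothelial-like library and was not called (log2 change -0.77).

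Of the death receptors and their relatives, Eda2r, the ectodysplasin A2 receptor, went from 16.0 and 8.93 to 55.7 and 63.9 CPM in endothelial-like cells (log2 change 2.32, SE 0.27, adjusted p = 0.00809). In macrophage-like cells Eda2r had 1 and 0 UMIs in sham and 3 and 4 after 12 Gy, too few to test. Fas overlapped between the groups in endothelial-like cells (62.9 and 78.6 CPM in sham, 43.5 and 75.8 CPM after 12 Gy) and passed in neither class. Tnfrsf10b, the mouse TRAIL receptor, had a log2 change of 0.18 in endothelial-like cells (adjusted p = 0.625) and was not tested in macrophage-like cells. Tnfrsf18, which encodes the costimulatory receptor GITR, was tested in neither class; endothelial-like cells had 0 and 2 UMIs of it in sham and 6 and 18 after 12 Gy. Cd80, a ligand that costimulates T cells, had 8 and 12 UMIs in sham endothelial-like cells and 1 and 3 after 12 Gy, a ratio of 0.180 with an exact 95% interval of 0.0448 to 0.538 that covers counting error only (adjusted p = 0.0764).

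Of the cell cycle genes, a pair that acts in mitosis was almost undetected in sham endothelial-like cells. Gtse1, a microtubule-associated protein that also restrains p53, had 1 and 3 UMIs in sham and 38 and 55 after 12 Gy, a ratio of 21.0 with a counting interval of 7.92 to 78.6 (fitted log2 change 4.36, SE 0.39, adjusted p = 0.00423). Psrc1, a spindle protein, had 1 UMI in each sham library and 14 and 15 UMIs after 12 Gy, a ratio of 13.1 with an interval of 3.31 to 113 (fitted log2 change 3.64, SE 0.61, adjusted p = 0.0266), and its call was kept in 1 of the 6 fits that left out a library. The summed level of 8 proliferation markers moved the same way in this class, from 185 and 225 CPM to 408 and 273 CPM, and 1 of the 8, Mki67, rose (log2 change 1.31, adjusted p = 0.0327); their part in the result was not tested. In macrophage-like cells Psrc1 had 18 and 8 UMIs in sham and 40 and 51 after 12 Gy (log2 change 1.85, SE 0.36, adjusted p = 0.0152), and Gtse1 had a log2 change of 1.43 (adjusted p = 0.0532). The 8 proliferation markers summed to 59.3 and 62.0 CPM in sham and 107 and 105 CPM after 12 Gy in this class, and 2 of 7 tested rose, Ube2c (log2 change 2.07, adjusted p = 0.00945) and Stmn1 (0.83, adjusted p = 0.00279); their part in the result was not tested. The polo-like kinase genes Plk2 and Plk3 and the antiproliferative gene Btg2 passed in neither class after 12 Gy, with log2 changes between -0.30 and 0.15.

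The genes of metabolism and repair were divided. Dcxr, dicarbonyl and L-xylulose reductase, went from 13.4 and 13.2 to 47.6 and 46.0 CPM in endothelial-like cells (log2 change 1.83, SE 0.17, adjusted p = 0.00423). In macrophage-like cells, where its level was higher, its log2 change was 0.11. Sesn2, a leucine sensor that restrains mTORC1, went from 10.8 and 6.80 to 24.8 and 36.3 CPM in endothelial-like cells (log2 change 1.86, SE 0.31, adjusted p = 0.026; kept in 2 of 6 fits without a library) and from 7.42 and 7.30 to 15.4 and 12.3 CPM in macrophage-like cells (log2 change 0.92, SE 0.16, adjusted p = 0.00802). Sesn2 overlaps the gene Gm12981 on the same strand, so its counts are uncertain. Its paralogue Sesn1 passed in neither class (log2 changes of -0.19 and 0.14). Polk, a translesion DNA polymerase, rose by 1.11 in endothelial-like cells (adjusted p = 0.0206; kept in 2 of 6) and had a log2 change of 0.04 in macrophage-like cells. The nucleotide excision repair genes did not pass: Ercc5 had log2 changes of 0.41 and -0.16, and Ddb2 had 3 to 11 UMIs per endothelial-like library and a log2 change of -0.61 in macrophage-like cells (adjusted p = 0.228). Tigar, a fructose bisphosphatase, and Ak1, an adenylate kinase, passed in neither class.

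**Figure D2:**
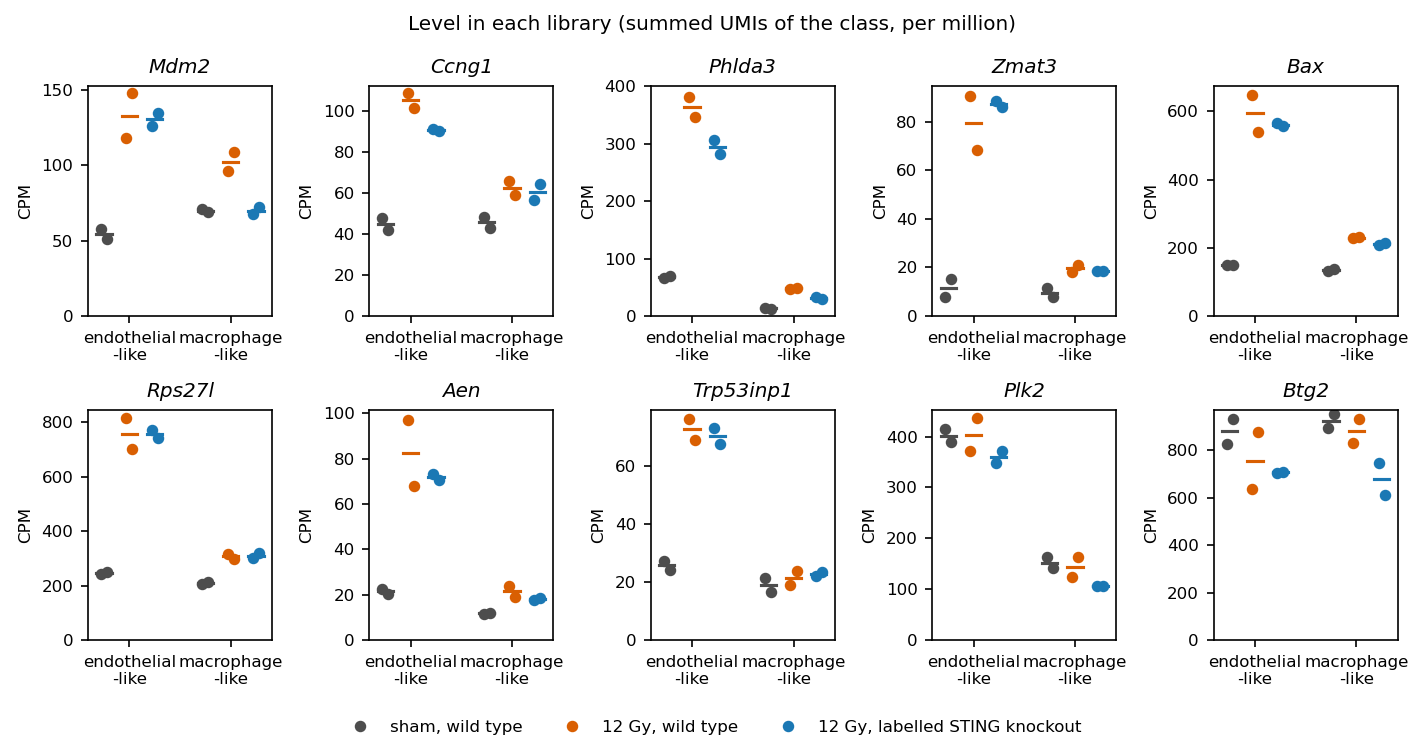
CPM of 10 of the genes in each library of the endothelial-like and macrophage-like classes; points are libraries, 2 per group, short lines are group means, and each axis starts at 0. Bax lies at 541 CPM or above in irradiated wild-type endothelial-like libraries and at 151 CPM or below in sham, while the sham and irradiated wild-type points of Plk2 overlap in both classes.

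Of the 16 calls in endothelial-like cells, 8 held in every fit that left out a library and in the other fits run: Bax, Ccng1, Dcxr, Gtse1, Phlda3, Rps27l, Trp53inp1 and Zmat3. The count fell to 10 without sham replicate 1, to 10 without sham replicate 2 and to 10 with only the 4 libraries compared. In a fit that leaves a group with 1 library, that library is assumed to vary like the other groups. Other cells' markers differed between these libraries: 9 neutrophil markers summed to 6343 CPM in sham replicate 2 and to 465 to 1023 CPM in the others, 10 cardiomyocyte markers summed to 879 and 1046 CPM in sham and 662 and 507 CPM after 12 Gy (4 of 10 fell), and 8 fibroblast markers to 465 and 913 CPM and 302 and 159 CPM (2 of 6 tested fell); their part in the result was not tested. The 10 endothelial markers summed to 19060 to 21672 CPM in all 6 libraries.

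Of the 11 calls in macrophage-like cells, 6 held in every fit that left out a library: Aen, Bax, Mdm2, Phlda3, Rps27l and Zmat3. The count fell to 7 without sham replicate 2 and to 4 when only cells with at most 5% mitochondrial UMIs were kept, a limit at which Aen, Mdm2 and Zmat3 were among the calls lost. That limit kept 2034 of the 10343 macrophage-like cells, and 22 members were tested under it. The part of the smaller number of cells in this loss was not tested. Marker levels in the class moved with radiation: 9 monocyte markers summed to 125 and 95.6 CPM in sham and 476 and 394 CPM after 12 Gy (Plac8, Ccr2 and Ly6c2 rose), and 5 markers of resident macrophages summed to 2057 and 2352 CPM and 1188 and 1590 CPM (Cd163, Timd4 and Vsig4 fell). The part of these cells in the result was not tested. Within each of the 4 macrophage-like clusters with enough cells, members still rose: 3 of 22 tested in cluster 0, 6 of 22 in cluster 1, 5 of 23 in cluster 3 and 4 of 22 in cluster 6, where 2.06%, 0.493%, 1.74% and 1.54% of genes rose. Phlda3 rose by 1.67, 2.45, 1.71 and 1.99 in these clusters, Bax by 0.58, 0.77, 0.85 and 0.82 and Rps27l by 0.47, 0.67, 0.55 and 0.57. Mdm2 rose in clusters 1 and 3 and had log2 changes of 0.11 and 0.41 in clusters 0 and 6. Cluster 4, led by the interferon-induced genes Ifit3, Ifit2 and Ifit1, held 19 and 20 sham cells against 139 and 135 irradiated wild-type cells and was not fitted.

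Within the endothelial-like class, cluster 19 (1619 cells, led by Gpihbp1, Fabp4 and Kdr) had 17 of 26 members tested rising after 12 Gy (4.37% of genes rose), with Phlda3 rising by 2.96 and Bax by 1.89. Cluster 18 (391 cells, led by Cytl1, Npr3 and H19) had none of 14 members called by edgeR (0.0421% of genes rose). Its libraries held 39 to 131 cells each. The median depth of its cells, as a ratio to their library's median, was 0.198, against 1.21 in cluster 19. In cluster 18, 5 members were higher and 2 lower at an unadjusted p under 0.05, where 549 of 4750 genes were under it in either direction. The median log2 change was 0.98, and Bax had a log2 change of 2.22 (adjusted p = 0.0912). Neither the difference between the clusters nor the part of depth in it was tested. A further 54 cells, led by Ccl21a, Mmrn1 and other genes that include Prox1, were too few to fit alone.

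For 10 members the change after 12 Gy was larger in endothelial-like than in macrophage-like cells, tested as a difference between the classes with the library as a block; 0.867% of the 13833 genes tested had a larger change in endothelial-like cells. The difference in log2 change was 1.70 for Dcxr (SE 0.20, adjusted p = 0.0016), 1.64 for Zmat3 (adjusted p = 0.038), 1.28 for Trp53inp1 (adjusted p = 0.0081) and 1.18 for Bax (SE 0.13, adjusted p = 0.00118). Polk, Aen, Rps27l, Ei24, Ccng1 and Mdm2 were the other 6, with differences of 0.72 to 1.06. The count fell to 3 without sham replicate 1 and to 5 without sham replicate 2; Bax, Dcxr and Rps27l held in every fit that left out a library. Endothelial-like cells also had a larger change than monocyte-like cells for 6 members (0.15% of genes), than neutrophil-like cells for 5 (0.669% of genes, with the median of all genes shifted by 0.29) and than B cell-like cells for 5, with 1 smaller (0.501% and 0.734% of genes). Without sham replicate 2 the counts of larger changes were 2 against neutrophil-like and 2 against B cell-like cells, and the latter was 8 without irradiated wild-type replicate 1. These comparisons share the endothelial-like libraries.

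In the other 8 classes no member was called after 12 Gy by edgeR. DESeq2 called 0 too, but gave no adjusted p for 17 members in each of B cell-like, cycling-like and fibroblast-like cells and for 4 in neutrophil-like cells. At an unadjusted p under 0.05, 0 of 19 members tested were higher and 1 lower in monocyte-like cells, 1 and 1 of 16 in neutrophil-like cells, 2 and 3 of 21 in B cell-like cells, 1 and 0 of 16 in NK cell-like cells, 3 and 2 of 21 in T cell-like cells, 0 and 1 of 26 in cycling-like cells, and 0 and 0 of 22 in dendritic cell-like cells. Of all genes tested, 3.12% were higher and 3.67% lower at that limit in monocyte-like cells, and 3.75% and 4.004% in neutrophil-like cells. The shares were 5.27% and 5.44% in B cell-like, 4.21% and 3.85% in NK cell-like, and 3.52% and 3.97% in T cell-like cells. They were 6.58% and 5.98% in cycling-like and 2.93% and 3.38% in dendritic cell-like cells. After adjustment, few genes of any kind were called in the 8 classes. Called higher were 0% of genes in neutrophil-like, T cell-like and dendritic cell-like cells, 0.0233% in monocyte-like, 0.0338% in B cell-like, 0.0736% in cycling-like and 0.324% in NK cell-like cells. Called lower were 0% in neutrophil-like, B cell-like and fibroblast-like cells, 0.0122% in dendritic cell-like, 0.014% in T cell-like, 0.0324% in NK cell-like, 0.0349% in monocyte-like and 0.202% in cycling-like cells. Mdm2 had 92.0 and 61.9 CPM in sham monocyte-like cells and 71.9 and 68.5 CPM after 12 Gy, within the sham range. In neutrophil-like cells it had 71.6 and 63.1 CPM in sham and 50.8 and 56.0 CPM after 12 Gy (log2 change -0.35, adjusted p = 0.755). Its log2 change was -0.12 in B cell-like, 0.10 in NK cell-like, 0.02 in T cell-like, -0.39 in dendritic cell-like and 0.26 in cycling-like cells, and none passed. Phlda3 had 0 to 17 UMIs per library in monocyte-like, neutrophil-like, B cell-like, NK cell-like and T cell-like cells and was not tested there; its log2 change was 0.17 in cycling-like and -0.05 in dendritic cell-like cells.

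The absence of a call is not a test against the responding classes. Between monocyte-like and macrophage-like cells, no member's radiation change was called different by edgeR (0.126% of genes larger and 0.713% smaller in monocyte-like cells). At an unadjusted p under 0.05, 0 of the 27 members tested were higher and 10 lower, where 1114 of 11918 genes were under that limit in either direction. Between neutrophil-like and macrophage-like cells, the changes of Mdm2 (difference -1.12, adjusted p = 0.0218) and Sesn2 (-1.27, adjusted p = 0.0066) were smaller in neutrophil-like cells (1.17% of genes, with the median of all genes shifted by -0.23). That count of 2 was between 0 and 3 in the fits that left out a library: 0 without sham replicate 2 and without knockout-labelled replicate 1, and 1 without either irradiated wild-type library or knockout-labelled replicate 2.

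Fibroblast-like cells had higher values without a call. Of the 24 members tested, 23 had a positive log2 change, and the median was 0.85 against -0.01 over all genes. At an unadjusted p under 0.05, 9 were higher and 0 lower, where 2.95% and 2.55% of all genes were. After adjustment, 0.0118% of 8506 genes were called higher. Rps27l had 191 and 195 CPM in sham and 378 CPM in both irradiated libraries (log2 change 0.95, SE 0.19, adjusted p = 0.25). Phlda3 had 87.4 and 157 CPM in sham and 284 and 221 CPM after 12 Gy (log2 change 1.00, SE 0.29, adjusted p = 0.525). For neither gene did the groups overlap, whereas those of Mdm2 did (41.9 and 46.7 CPM in sham, 43.2 and 48.4 CPM after 12 Gy). With 2 libraries per group, such a lack of overlap alone has a permutation p of at least 0.333. These libraries held 30 to 120 fibroblast-like cells. In this class 5 markers of monocyte-derived macrophages summed to 592 and 229 CPM in sham and 1286 and 942 CPM after 12 Gy, and 8 fibroblast markers to 57498 and 61158 CPM and 54039 and 51301 CPM; their part in the values was not tested.

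**Figure D3:**
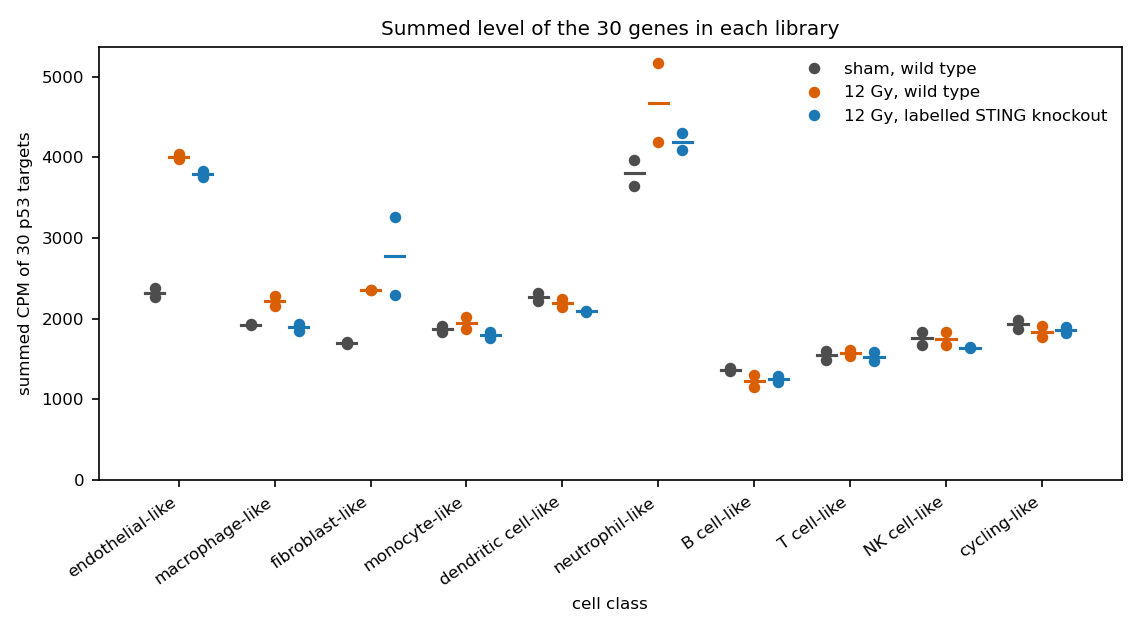
Summed CPM of the 30 genes in each library, by cell class; points are libraries, short lines group means, and the axis starts at 0. Endothelial-like libraries lie at 2265 and 2380 CPM in sham and at 3980 and 4038 CPM after 12 Gy in wild type, while the sham and irradiated wild-type points of the monocyte-like, dendritic cell-like, T cell-like, NK cell-like and cycling-like classes overlap.

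Summed over the 30 members, endothelial-like cells had 2265 and 2380 CPM in sham, 3980 and 4038 CPM after 12 Gy in wild type and 3832 and 3754 CPM in the libraries labelled STING knockout. Macrophage-like cells had 1923 and 1926 CPM, 2153 and 2284 CPM, and 1936 and 1850 CPM. A sum gives most weight to abundant members: Btg2 alone had 2156 and 1956 CPM in sham neutrophil-like cells and 3318 and 2644 CPM after 12 Gy (adjusted p = 0.451), and the sum was higher after 12 Gy there too. The difference was also seen in single cells of equal depth. With every cell thinned to 1500 UMIs, endothelial-like cells held on average 2.35 and 2.39 different members in sham, 4.08 and 3.95 after 12 Gy in wild type and 3.89 and 3.86 in the libraries labelled STING knockout. Without thinning the means were 5.62 and 5.72, 9.61 and 9.49, and 9.80 and 9.93, at median depths of 4739 to 7234 UMIs, and thinning left out 37 and 34, 33 and 26, and 105 and 48 shallower cells. In macrophage-like cells the thinned means were 1.97 and 1.91, 2.24 and 2.31, and 2.10 and 2.13, and in neutrophil-like cells they lay between 2.57 and 2.70 in all 6 libraries. For neutrophil-like cells, thinning left out 133 of 353 and 163 of 1056 in sham and 59 of 190 and 279 of 561 after 12 Gy in wild type. It left out 77 of 839 and 138 of 794 in the libraries labelled STING knockout. The neutrophil-like means therefore describe deeper cells, kept at unequal shares.

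Among irradiated libraries, 8 of the 26 members tested in macrophage-like cells were lower in the libraries labelled STING knockout and none was higher, where 2.64% of genes fell and 1.51% rose. At an unadjusted p under 0.05, 0 were higher, where 10.1% of all genes were, and DESeq2 called 6 lower and 0 higher but gave no adjusted p for 5 members. The median log2 change was -0.20, against -0.01 over all genes. Mdm2 had 96.0 and 109 CPM in irradiated wild-type libraries, against 67.4 and 72.2 CPM in those labelled STING knockout, which overlap the sham libraries at 70.8 and 68.7 CPM (log2 change -0.68, SE 0.09, adjusted p = 0.00798). Phlda3 had 47.4 and 49.7 against 32.9 and 30.3 CPM (log2 change -0.74, SE 0.10, adjusted p = 0.00724), still above the sham libraries. Plk3 had 48.9 and 56.0 against 32.0 and 33.3 CPM (log2 change -0.81, SE 0.10, adjusted p = 0.00629), below the sham libraries at 46.7 and 49.4 CPM. Plk2 had 124 and 163 against 107 and 106 CPM (log2 change -0.55, adjusted p = 0.0413), and Btg2 had 829 and 930 against 748 and 613 CPM (log2 change -0.50, adjusted p = 0.0393). In the comparison of irradiated with sham wild type, which shares the irradiated wild-type libraries, the log2 changes of Plk2, Plk3 and Btg2 were -0.06, 0.15 and -0.05. Pmaip1 had 52.9 and 54.8 against 34.3 and 39.2 CPM (log2 change -0.68, adjusted p = 0.0161), and Sesn2 15.4 and 12.3 against 9.72 and 8.81 CPM (log2 change -0.69, adjusted p = 0.0321). Gtse1 had 19 and 23 against 9 and 14 UMIs (log2 change -1.59, SE 0.37, adjusted p = 0.0455). Bax, Aen, Zmat3, Bbc3, Ccng1 and Rps27l had log2 changes by genotype label between -0.36 and -0.11 and did not pass, nor did Psrc1 (-0.70, adjusted p = 0.204).

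No macrophage-like genotype call held in all 6 fits that left out a library; Mdm2 and Plk3 held in 5, Phlda3 in 4 and Gtse1 in 0. The count fell to 0 when knockout-labelled replicate 1 was left out, to 2 for knockout-labelled replicate 2, to 4 for irradiated wild-type replicate 2, to 4 for sham replicate 2 and to 5 for sham replicate 1. It was 5 with only the 4 irradiated libraries and 0 when only cells with at most 5% mitochondrial UMIs were kept. That limit kept 2034 of the 10343 macrophage-like cells, and 22 members were tested under it. Genes induced by tissue dissociation moved with the label: of 14 such genes, 6 fell (Atf3, Junb, Fos, Nr4a1, Dusp1 and Ier3), and their summed level was 18700 and 22274 CPM in irradiated wild-type libraries, against 18199 and 15942 CPM in those labelled STING knockout. Median depth was 6772 and 5679 UMIs per macrophage-like cell in irradiated wild-type libraries and 8415.5 and 7913 UMIs in those labelled STING knockout. The part of either in the result was not tested. Within clusters, the members lower by genotype label were Phlda3 in cluster 0, Plk3 and Mdm2 in cluster 1, and Btg2, Phlda3 and Plk3 in cluster 6 (0.667%, 0.564% and 1.27% of genes fell). In cluster 3 none was called by edgeR (1.24% of genes fell). At an unadjusted p under 0.05, 8 were lower and 0 higher there, where 1595 of 10253 genes were under that limit in either direction.

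**Figure D4:**
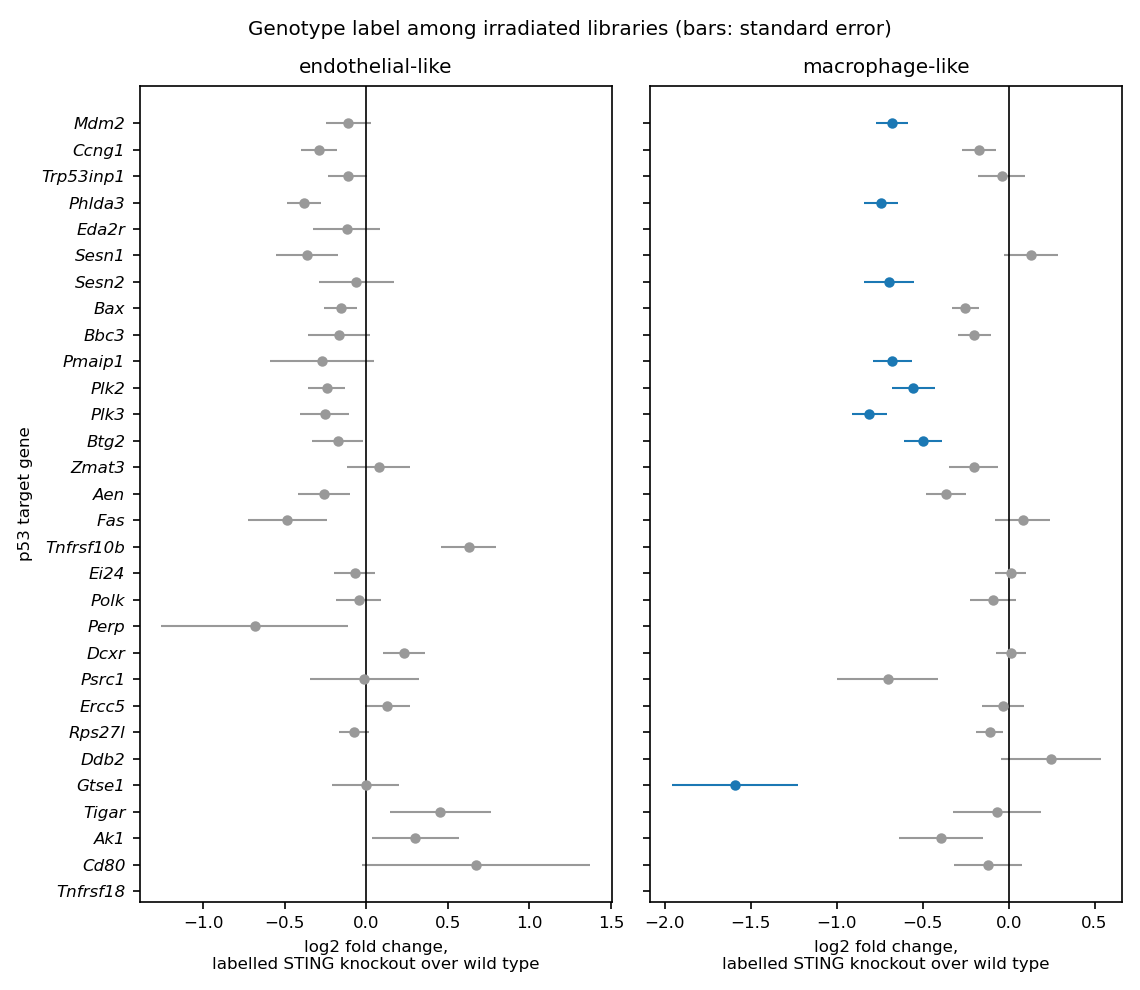
Log2 fold change of each gene between irradiated libraries labelled STING knockout and irradiated wild-type libraries in endothelial-like (left) and macrophage-like (right) cells, on horizontal axes of different range. Bars are standard errors, blue points have an adjusted p under 0.05, grey points do not, and genes without a point were not tested; the 8 blue points lie in the macrophage-like panel, left of 0.

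In endothelial-like cells none of the 28 members tested differed by genotype label in edgeR (0.0267% of genes rose and 0.0089% fell). At an unadjusted p under 0.05, 1 was higher and 2 lower, where 5.13% and 5.14% of all genes were. DESeq2 called 0, but gave no adjusted p for 24 members. Mdm2 had 118 and 148 CPM in irradiated wild-type libraries, against 126 and 135 CPM in those labelled STING knockout. Phlda3 had 382 and 347 against 307 and 282 CPM, groups that did not overlap (log2 change -0.38, SE 0.10, adjusted p = 0.352). The genotype difference was not shown to differ between endothelial-like and macrophage-like cells: no member passed in edgeR (0% of genes passed in either direction). At an unadjusted p under 0.05, 7 members were higher and 2 lower, where 863 of 13833 genes were under that limit in either direction. For Mdm2 the difference between the classes was 0.60 (SE 0.12, adjusted p = 0.186).

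Monocyte-like cells had 1 member lower by genotype label, Plk2, at 112 and 130 CPM in irradiated wild-type libraries, against 64.7 and 53.7 CPM in those labelled STING knockout (log2 change -1.11, SE 0.16, adjusted p = 0.0085; 0.384% of genes fell). Without either knockout-labelled library the call was lost. In the other 7 classes no member was called by edgeR. DESeq2 called 0 too, but gave no adjusted p for 16 members in B cell-like, 15 in NK cell-like, 18 in dendritic cell-like, 20 in fibroblast-like, 3 in neutrophil-like and 2 in cycling-like cells. The share of genes that fell there was 0.316% in neutrophil-like, 0.417% in B cell-like, 0.11% in cycling-like, 1.36% in NK cell-like, 0.0281% in T cell-like, 0.0732% in dendritic cell-like and 0.0353% in fibroblast-like cells. The share that rose was 0.12%, 0.203%, 0.0552%, 0.324%, 0.014%, 0.0244% and 0.0235% in the same order. At an unadjusted p under 0.05, 0 members were higher and 6 lower in cycling-like cells, 0 and 3 in NK cell-like cells, 0 and 2 in dendritic cell-like cells, 1 and 0 in fibroblast-like cells, 1 and 1 in B cell-like cells, and 0 and 1 in each of neutrophil-like and T cell-like cells. Over all genes these shares were 5.45% and 5.89% in cycling-like, 5.81% and 7.20% in NK cell-like, and 4.81% and 5.37% in dendritic cell-like cells. They were 3.08% and 3.89% in fibroblast-like and 9.06% and 9.30% in B cell-like cells. In neutrophil-like cells they were 3.96% and 4.65%, and in T cell-like cells 3.97% and 5.11%. In neutrophil-like cells the genotype difference was more positive than in macrophage-like cells for Mdm2 (1.29), Sesn2 (1.31), Plk2 (1.21) and Plk3 (0.996), where 0.8% of genes were and the median of all genes was shifted by 0.22. All 4 calls were lost without knockout-labelled replicate 1 and without knockout-labelled replicate 2.

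The libraries labelled STING knockout were also set against sham wild type, a comparison that shares libraries with both comparisons above. In endothelial-like cells 17 of the 28 members tested rose and none fell (3.25% of genes rose and 2.96% fell), with a median log2 change of 1.05. At an unadjusted p under 0.05, 6 were lower, where 13.1% of all genes were, and DESeq2 called 16 higher and 0 lower. Phlda3 rose by 2.06 (SE 0.11, adjusted p = 0.000207), Bax by 1.85 (SE 0.11, adjusted p = 0.000236), Zmat3 by 2.83 and Mdm2 by 1.21 (adjusted p = 0.00735). Tnfrsf10b, not called in irradiated wild type, had 22.7 and 17.9 CPM in sham and 36.5 and 36.7 CPM here (log2 change 0.81, adjusted p = 0.0365), a call kept in 2 of 6 fits without a library. The count was 9 without sham replicate 2, 7 without knockout-labelled replicate 1 and 8 without knockout-labelled replicate 2, and 4 members fell without irradiated wild-type replicate 1 and 3 without irradiated wild-type replicate 2. The summed level of the 8 proliferation markers was 435 and 521 CPM here against 185 and 225 CPM in sham, and 6 of the 8 rose.

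In macrophage-like cells 5 members rose against sham and 3 fell (2.94% of genes rose and 3.97% fell). Phlda3 rose by 1.14 (SE 0.11, adjusted p = 0.000717), Zmat3 by 0.87 (adjusted p = 0.0117), Bax by 0.55 (adjusted p = 0.004), Aen by 0.52 (adjusted p = 0.0396) and Rps27l by 0.47 (adjusted p = 0.00799). Plk3 fell by 0.66, Plk2 by 0.61 and Btg2 by 0.54 on the log2 scale, and 11 of the 14 dissociation-induced genes fell too. Mdm2 had a log2 change of -0.10 (adjusted p = 0.545). The 5 rises were 3 without sham replicate 2, 3 without knockout-labelled replicate 1 and 1 without knockout-labelled replicate 2, and Phlda3 alone held in all 6 such fits. The 3 falls were 1 without either sham library, 1 without knockout-labelled replicate 1 and 0 without knockout-labelled replicate 2.

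Outside these 2 classes, Rps27l rose against sham in fibroblast-like cells, from 191 and 195 to 413 and 562 CPM (log2 change 1.18, SE 0.19, adjusted p = 0.0499; 0.0588% of genes rose), a call kept in 3 of 6 fits without a library; the count of members was 0 without sham replicate 2 or knockout-labelled replicate 2 and 3 without knockout-labelled replicate 1. Plk2 fell in monocyte-like cells by 1.09 on the log2 scale (adjusted p = 0.0072; 0.384% of genes fell), but not without either sham library or knockout-labelled replicate 2. In the other 6 classes no member was called by edgeR. DESeq2 called 0 too, but gave no adjusted p for 20 members in B cell-like, 15 in NK cell-like, 16 in cycling-like, 13 in T cell-like, 14 in dendritic cell-like and 4 in neutrophil-like cells. The share of genes that rose there was 0.0903% in neutrophil-like, 0.0676% in B cell-like, 0.101% in cycling-like, 0.0647% in NK cell-like, 0.014% in T cell-like and 0.0366% in dendritic cell-like cells. The share that fell was 0.0602%, 0.338%, 0.166%, 0.469%, 0.267% and 0.22% in the same order. At an unadjusted p under 0.05, 0 members were higher and 4 lower in B cell-like cells, 1 and 4 in cycling-like cells, 0 and 2 in dendritic cell-like cells, 0 and 1 in each of NK cell-like and T cell-like cells and 0 and 0 in neutrophil-like cells. Over all genes these shares were 3.44% and 4.38% in B cell-like, 5.83% and 5.89% in cycling-like, and 3.97% and 5.64% in dendritic cell-like cells. They were 3.42% and 4.27% in NK cell-like, 2.95% and 5.32% in T cell-like, and 4.34% and 4.71% in neutrophil-like cells.

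Other genes of the pathway came from lists of 20 regulators of p53 and 30 further targets, among them Cdkn1a and Gdf15. Of 18 regulators tested in endothelial-like cells, 1 rose after 12 Gy, Trp53, the gene of p53 itself, from 88.7 and 83.3 to 173 and 126 CPM (log2 change 0.81, SE 0.16, adjusted p = 0.0371). Of 18 tested in macrophage-like cells none was called by edgeR, and Trp53 lay between 59.7 and 64.0 CPM in all 6 libraries. At an unadjusted p under 0.05, 0 of these regulators were higher and 3 lower, where 13.5% and 12.3% of all genes were. Of the further targets, 8 of 27 tested rose in endothelial-like cells (2.27% of all genes rose) and 8 of 29 in macrophage-like cells (5.14%), and none fell. In endothelial-like cells these included the noncoding RNAs Trp53cor1 (2 UMIs in each sham library, 25 and 29 after 12 Gy) and Pvt1 (log2 change 3.37), the thiamine transporter gene Slc19a2 (2.69) and the spindle gene Ckap2 (2.14). In macrophage-like cells they included the cytokine gene Lif (log2 change 1.29), Cyfip2 (1.21), Trp53cor1 (0.95) and the peptide transporter gene Tap1 (0.94). This class includes cluster 4, led by interferon-induced genes, with 19 and 20 sham cells and 139 and 135 irradiated wild-type cells. Its part in these rises was not tested.

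Cdkn1a, which encodes the cell cycle inhibitor p21, went from 469 and 619 to 1438 and 1629 CPM in endothelial-like cells after 12 Gy, and in macrophage-like cells it fell by genotype label by 0.94 on the log2 scale (adjusted p = 0.00277). Gdf15, a secreted stress cytokine, went from 37.6 and 24.7 to 562 and 743 CPM in endothelial-like cells and fell by genotype label in macrophage-like cells by 0.74 (adjusted p = 0.0311). With Lif, these were the 3 of 29 further targets tested that fell by genotype label in macrophage-like cells (2.64% of all genes fell).

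Over all kept cells together no member was called after 12 Gy by edgeR (0% of 15748 genes rose and 0.0127% fell), while 12 were higher and 1 lower at an unadjusted p under 0.05 (12.6% and 10.2% of all genes). DESeq2 called 10 higher and 1 lower, and called 7.04% of all genes in either direction. Phlda3 had 20.3 and 17.3 CPM in sham and 59.3 and 49.0 CPM after 12 Gy (log2 change 1.56, SE 0.20, adjusted p = 0.0665). By genotype label none was called by edgeR (0.00635% of genes rose and 0.0127% fell), with 1 higher and 2 lower at an unadjusted p under 0.05 (6.18% and 8.56% of all genes). DESeq2 called 0 and gave no adjusted p for 8 members. Against sham, the libraries labelled STING knockout had none called by edgeR (0.00635% of genes rose and 0.0381% fell), 12 higher and 6 lower at an unadjusted p under 0.05 (9.01% and 10.1% of all genes), and 8 higher in DESeq2, which called 5.14% of all genes in either direction. Over all cells, the makeup of a library and the level within its cells cannot be told apart.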

How the data were processed

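UMI counts per gene and cell barcode were deposited by the authors, 1 matrix per library, made with Cell Ranger 5.0.0 per the file headers; build mm10 and Seurat 3 are named in the submitters' processing notes. Of 45904 barcodes, those with at least 200 genes and at most 10% mitochondrial UMIs were kept (31279) after removing the highest scrublet scores at a rate of 0.8% per 1000 cells, because its automatic threshold marked 0 to 3 cells per library. Cells were clustered with scanpy 1.11.5 (2000 variable genes, 30 components, Leiden resolution 1; 29 clusters) and named from at least 3 detected markers; settings of the naming rule were chosen after the clusters were seen. In all, 3887 cells in clusters of mixed lineages and 1280 in unnamed clusters were left out, as were classes with under 20 cells in a library.

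Counts were summed per library and class (24516116 to 48253522 kept UMIs per library) and fitted over all 6 libraries with edgeR 4.0.16 (TMM, quasi-likelihood F test, 3 residual degrees of freedom, R 4.3.3), checked first on simulated data. DESeq2 1.42.0 was an alternative. Members called were given in full up to the 12 largest changes per class. The members and gene lists were chosen with earlier results of these data known.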

Additional observations from a re-analysis of the deposited data

Results flagged for a closer look

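The following members changed by a different amount in 2 cell classes, by a test of the difference in log2 change with the library as a block and adjustment over all genes tested. The change after 12 Gy in endothelial-like cells exceeded that in macrophage-like cells by 0.718 for Mdm2, 0.756 for Ccng1, 1.28 for Trp53inp1, 1.18 for Bax, 1.64 for Zmat3, 1.04 for Aen, 0.883 for Ei24, 1.06 for Polk, 1.7 for Dcxr and 1.04 for Rps27l. It exceeded that in monocyte-like cells by 1.38 for Mdm2, 1.95 for Trp53inp1, 1.62 for Bax, 3.35 for Zmat3, 2.51 for Dcxr and 1.44 for Rps27l. Against neutrophil-like cells the excess was 1.95 for Mdm2, 2.07 for Trp53inp1, 2.31 for Sesn2, 1.93 for Bax and 1.49 for Rps27l. Against B cell-like cells it was 1.43 for Mdm2, 1.89 for Trp53inp1, 1.74 for Bax, 1.48 for Pmaip1 and 1.54 for Aen, while Cd80 had a difference of -3.27. Bax, Dcxr and Rps27l held in every fit that left out a library against macrophage-like and against monocyte-like cells. Bax and Mdm2 did against neutrophil-like cells, and Bax and Trp53inp1 against B cell-like cells. The other differences in this paragraph did not hold in every such fit. Cd80 had 20 UMIs in sham and 4 in irradiated wild-type endothelial-like libraries.

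Between neutrophil-like and macrophage-like cells, the change after 12 Gy differed by -1.12 for Mdm2 and -1.27 for Sesn2. Neither held in every fit that left out a library, where the differences ranged from -1.22 to -0.958 and from -1.86 to -0.880. The difference by genotype label was more positive in neutrophil-like cells by 1.29 for Mdm2, 1.31 for Sesn2, 1.21 for Plk2 and 0.996 for Plk3. None of these 4 held in every fit that left out a library.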

How the results depend on the processing

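Of 1456 alternative fits of 109 single-gene results, 1185 kept direction and side of the threshold, 4 gained a call, 18 changed sign and the rest lost the call; 4 adjusted p-values of these results that DESeq2 gave as NA were left out. The causes were not tested.

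Percentages in brackets in this paragraph are shares of all genes called in either direction. Without a filter on low counts, members called higher after 12 Gy were 1 in B cell-like (1.13%), 3 in fibroblast-like (0.784%) and 9 in all kept cells (4.26%). Members lower by genotype label were 1 in B cell-like (2.47%) and 2 in cycling-like cells (2.13%). Against sham, the libraries labelled STING knockout then had 4 members lower in endothelial-like (9.91%), 1 lower in cycling-like (2.29%), 8 higher in fibroblast-like (1.12%) and 7 higher in all kept cells (3.30%). Differences between classes became 1 smaller for endothelial-like against macrophage-like (3.60%), and 13 larger and 1 smaller against monocyte-like cells (1.32%). Against macrophage-like cells, 1 was smaller for monocyte-like (1.11%) and 1 for neutrophil-like cells (0.639%). With DESeq2 size factors 1 was smaller for endothelial-like against neutrophil-like cells (1.60%). At most 5% mitochondrial UMIs left 4 macrophage-like rises after 12 Gy (1.92%), and 0 falls by genotype label in macrophage-like (0.570%) and 0 in monocyte-like cells (0.198%). Against sham, this limit left 2 rises and 0 falls in macrophage-like (1.37%) and 0 falls in monocyte-like cells (0.410%). Only the 4 libraries compared gave 10 endothelial-like rises, 5 macrophage-like falls by genotype label and, against sham, 5 endothelial-like falls and 1 NK cell-like fall, where 0.262%, 4.30%, 13.1% and 0.972% of all genes were called in either direction. Leiden resolution 0.5 gave 1 T cell-like rise (1.59%) and, against sham, 1 T cell-like fall (1.57%). With doublets kept, 2 endothelial-like members fell (7.55%) and 2 fibroblast-like members rose against sham (0.221%). DESeq2 called 10 rises after 12 Gy (7.04%) and 8 against sham (5.14%) in all kept cells. Within macrophage-like clusters 0, 1, 3 and 6 there were 3, 6, 5 and 4 rises (3.99%, 0.729%, 3.47% and 2.39%).

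Leaving out 1 library at a time gave these ranges. After 12 Gy there were 7 to 9 rises in macrophage-like, 0 to 1 in B cell-like (1 without irradiated wild-type replicate 1) and 10 to 17 in endothelial-like cells. By genotype label there were 0 to 6 falls in macrophage-like, 0 to 2 in B cell-like (2 without irradiated wild-type replicate 1) and 0 to 1 in monocyte-like cells. Against sham there were 1 to 5 rises and 0 to 3 falls in macrophage-like, 7 to 18 rises and 0 to 4 falls in endothelial-like, 0 to 1 falls in monocyte-like, 0 to 1 falls in NK cell-like (1 without either irradiated wild-type library) and 0 to 3 rises in fibroblast-like cells. Differences between classes ranged, for endothelial-like cells, from 2 to 8 larger and 0 to 1 smaller against B cell-like, 3 to 9 larger against macrophage-like, 0 to 1 smaller against monocyte-like, and 2 to 6 larger and 0 to 1 smaller against neutrophil-like cells; they ranged from 0 to 1 smaller for monocyte-like and 0 to 3 smaller for neutrophil-like against macrophage-like cells.

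The titles number the libraries 1 and 2 in each group, but same-numbered libraries did not deviate together (correlations of deviations from -0.101 to 0.179), so they share only a number. With the replicate block there were 14 endothelial-like and 10 macrophage-like rises after 12 Gy and 6 macrophage-like falls by genotype label. B cell-like cells had 1 rise after 12 Gy (1.37% of all genes called in either direction) and 1 fall by genotype label (5.38%). All kept cells had 1 rise against sham (0.114%). A block with crossed sham numbers in endothelial-like cells, added after seeing the data, gave 16 rises after 12 Gy and 17 against sham.

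The sign of small, uncalled changes after 12 Gy turned as follows. Mdm2 ranged without 1 library from -0.55 to 0.22 in B cell-like cells (0.22 without sham replicate 2; 0.08 when irradiated wild-type replicate 1 was left out), from -0.39 to 0.16 in monocyte-like cells (0.16 without sham replicate 1) and from -0.36 to 0.46 in NK cell-like cells (-0.36 without irradiated wild-type replicate 2), where it was -0.59 and -0.048 at mitochondrial limits of 5% and 20%. In T cell-like cells Mdm2 was -0.0020 with no filter on low counts, -0.11 at a limit of 20%, -0.064 with doublets kept, -0.22 without sham replicate 2 and -0.45 when irradiated wild-type replicate 2 was left out. In fibroblast-like cells it was -0.088 with the replicate block and ranged from -0.076 (irradiated wild-type replicate 2 left out) to 0.14, and was -0.044 without sham replicate 1. Phlda3 in dendritic cell-like cells was 0.0063 with no filter and 0.052 with doublets kept, and ranged from -0.91 to 1.77 (1.77 without sham replicate 2; 0.37 when irradiated wild-type replicate 2 was left out). Fibroblast-like libraries held 30 to 120 cells, and Phlda3 had 0 to 17 UMIs per library in 5 classes, so differences there may not have been detectable at this depth.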
